A study of Mus musculus with 91 samples.

Results

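Messenger RNA of 5 genes of the endocannabinoid system was followed in the D1 and D2 neurons of the mouse nucleus accumbens over the day. The genes were set by name, with earlier results of these data known. They were the cannabinoid receptor gene Cnr1 (ENSMUSG00000044288), the synthesis genes Dagla (ENSMUSG00000035735) and Napepld (ENSMUSG00000044968), and the breakdown genes Mgll (ENSMUSG00000033174) and Faah (ENSMUSG00000034171). All 5 were found among the 14355 genes counted. Cre was driven by Drd1 in the mice used for D1 neurons and by A2a in those used for D2 neurons. Both lines were crossed to RiboTag mice, in which Cre switches on Rpl22 with an HA tag, so that an antibody pulls down ribosomes and their mRNA from cells that express Cre. The mice were of both sexes, over 10 weeks old and kept in 12 h of light and 12 h of dark, and tissue of 2 mice was pooled for each sample. Tissue was taken at ZT (hours after lights on) 2, 6, 10, 14, 18 and 22. This gave 45 D1 libraries (23 female and 22 male) and 46 D2 libraries (23 of each sex), in 24 groups of 3 or 4. Because each cell type came from its own Cre line, cell type and mouse line cannot be told apart.

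Endocannabinoids are lipid messengers that a neuron makes on demand and that act backwards across the synapse. Cnr1 encodes the CB1 receptor, which sits mainly on axon terminals and lowers transmitter release when activated. Dagla encodes diacylglycerol lipase alpha, which makes 2-arachidonoylglycerol (2-AG), and Mgll encodes monoacylglycerol lipase, which breaks it down. Napepld encodes the phospholipase that releases anandamide and related N-acylethanolamines, and Faah the hydrolase that degrades them. D1 and D2 neurons are the projection neurons of the nucleus accumbens, and endocannabinoid signalling there is known for its part in synaptic depression and in reward. In terminals, CB1 protein can lie far from the cell body whose mRNA was sampled, so the values below describe ribosome-bound mRNA in the neurons that express Cre.

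Levels are in CPM, the reads of a gene scaled to the total of its library after adjustment by the TMM method. They are not compared between genes, since CPM is not corrected for length. Library totals ranged from 6872165 to 24665262 counts. Counts per library had a median of 1000 for Cnr1, 828 for Dagla, 946 for Mgll, 301 for Faah and 74 for Napepld, with a lowest count of 24 for Napepld. Library titles carry a letter, A to E, whose meaning the labels do not give, and E stands for 1 D1 library alone. Of the D1 libraries, 3 from males stood apart from the rest in how many genes were at 0, with 205 at ZT18 D, 789 at ZT10 B and 722 at ZT22 B. Between them they held the lowest D1 value of all 5 genes and the highest of Napepld: ZT18 D had Cnr1 at 51.9, Dagla at 36.3 and Mgll at 33.1 CPM, ZT10 B had Faah at 11.1 and Napepld at 2.92 CPM, and ZT22 B had Napepld at 10.6 CPM. Results are given without them where a call moves. Marker genes of cell types could not be identified by name here, so the labelled cell types were not checked and RNA from other cells was not tested.

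The first comparison asked how the level of each gene differed between D1 and D2 neurons. The receptor gene was higher in D1 neurons and was the 1 of 5 genes past the threshold of 0.05 on the adjusted p. Cnr1 was 1.52-fold higher in D1 than in D2 neurons (95% interval 1.37 to 1.69). Of all genes, 19.3% passed this test, 9.44% higher and 9.86% lower in D1. The median D1 minus D2 difference was 0.08 on the log2 scale over the 5 genes and -0.01 over all genes. The tests are edgeR's quasi-likelihood tests, with Benjamini-Hochberg adjustment over all genes.

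Cnr1 lies on mouse chromosome 4 (chr4:33923171-33948831, RefSeq, GRCm38.p6), and no other RefSeq gene overlaps it. In the 45 D1 libraries its lowest, median and highest values were 51.9, 82.7 and 177 CPM, and in the 46 D2 libraries 39.5, 59.2 and 96.0 CPM. The groups overlapped: 14 D1 libraries lay above every D2 library and 12 D2 libraries below every D1 library, while 43 of 45 D1 libraries lay above the D2 median. The mean of Cnr1 was 90.8 ± 28.2 CPM (SD) over all D1 and 59.8 ± 12.2 CPM (SD) over all D2 libraries. The difference was 0.61 ± 0.08 on the log2 scale (SE), with an adjusted p of 2.03e-10 in edgeR. It had the same direction in 12 of 12 combinations of sex and time, from 0.15 in males at ZT22 to 0.94 in females at ZT10. Without the 3 libraries that stood apart it was 0.65, where 19.5% of all genes passed.

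**Figure D1:**
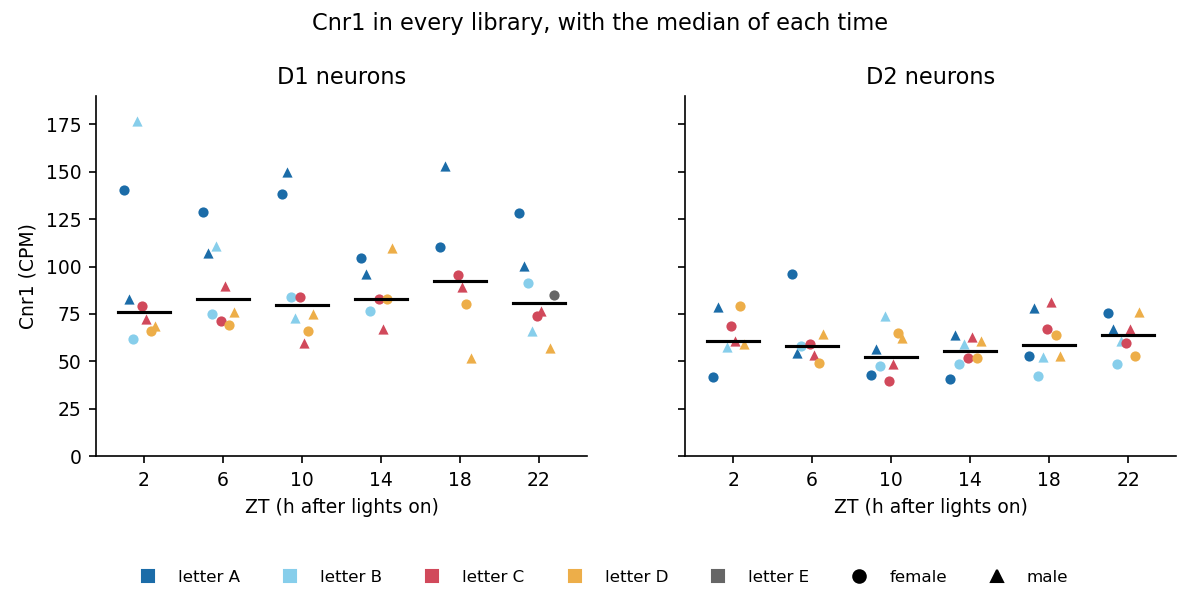
Cnr1 in CPM (vertical axis) against ZT in hours (horizontal axis) in every D1 library (left) and D2 library (right); colours give the letter of the library, circles females, triangles males, and bars the median of each time. D1 libraries of letter A, with a median of 119.5 CPM, hold most of the values above 96.0 CPM, the highest in D2.

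The size of the Cnr1 difference moved with the letter of the library. In D1 neurons the median was 119.5 CPM in the 12 libraries of letter A, 76.5 in the 9 of letter B, 77.9 in the 12 of letter C and 69.0 in the 11 of letter D. Letter A gave 11 of the 14 D1 libraries that lay above every D2 library. In D2 neurons the letters had similar medians, 60.0 CPM in A, 54.8 in B, 60.3 in C and 61.5 in D. Fitted within a letter, in tests added after the data were seen, the D1 minus D2 difference in Cnr1 was 0.95 in A (adjusted p = 5.62e-06), 0.41 in B (0.00338), 0.41 in C (0.000149) and 0.26 in D (0.0312). Cnr1 thus passed in each of the 4 letters, with the highest value in letter A. Within a letter many genes passed, 48.3% of all genes in A, 48.3% in B, 55.9% in C and 54.3% in D, so that a pass there is common. Whether the letters differ from one another was not tested. Without letter A the fold was 1.35, against 1.52 with all libraries.

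Windows of the 250 bases before a listed start of a gene were searched for the E-box CACGTG. A gene can have more than 1 such start, also inside its RefSeq bounds. The clock proteins CLOCK and BMAL1 are known to bind the E-box. It reads the same on both strands. RefSeq windows were found for 4 of the 5 genes, 7 windows in all, and 2 of the 7 held the motif: 1 of the 2 of Mgll and 1 of the 3 of Cnr1. Among all 32817 windows of this length, 6.02% held it. All 3 Cnr1 windows, the Faah window and the second Mgll window lie inside the bounds of their genes. In the second Cnr1 window the motif began 49 bases before the start that this window precedes. It is shown with the bases around it (chr4:33924583-33924612, plus strand, GRCm38.p6, motif in capitals) because Cnr1 is the gene that differed between the cell types:
Cnr1: aaggctcattaaCACGTGatgggaccacgc
A match describes these letters and is not evidence of binding.

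Dagla, the 2-AG synthesis gene (chr19:10245265-10304877, GRCm38.p6), had close levels in the 2 cell types. Its lowest, median and highest values were 36.3, 59.8 and 76.6 CPM in D1 and 49.2, 55.6 and 66.9 CPM in D2. The D1 range extended past that of D2 at both ends, with 7 D1 libraries above and 2 below every D2 library, and 38 of 45 D1 libraries lay above the D2 median. The difference was 0.08 ± 0.03 on the log2 scale (SE), a 1.06-fold difference (95% interval 1.01 to 1.11), and its adjusted p of 0.0544 missed the threshold. Dagla passed without the 3 libraries that stood apart, at 0.11 (adjusted p = 0.00354). It also passed with the letter as a block, at 0.08 (adjusted p = 0.0182, where the share over all genes was 38.1%). A block set separately for D1 and D2 gave 0.09 (0.0079), where 43.2% of genes passed. In all it passed in 9 of 12 alternatives. Within letters it passed in C (0.17, adjusted p = 0.00595) and in D (0.18, 0.00905), and was at -0.01 in A (0.784) and -0.10 in B (0.170). Dagla overlaps the lncRNA Gm30042 in RefSeq, and the sources used here do not give whether counting used strand, so reads of that RNA cannot be told apart from its own.

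**Figure D2:**
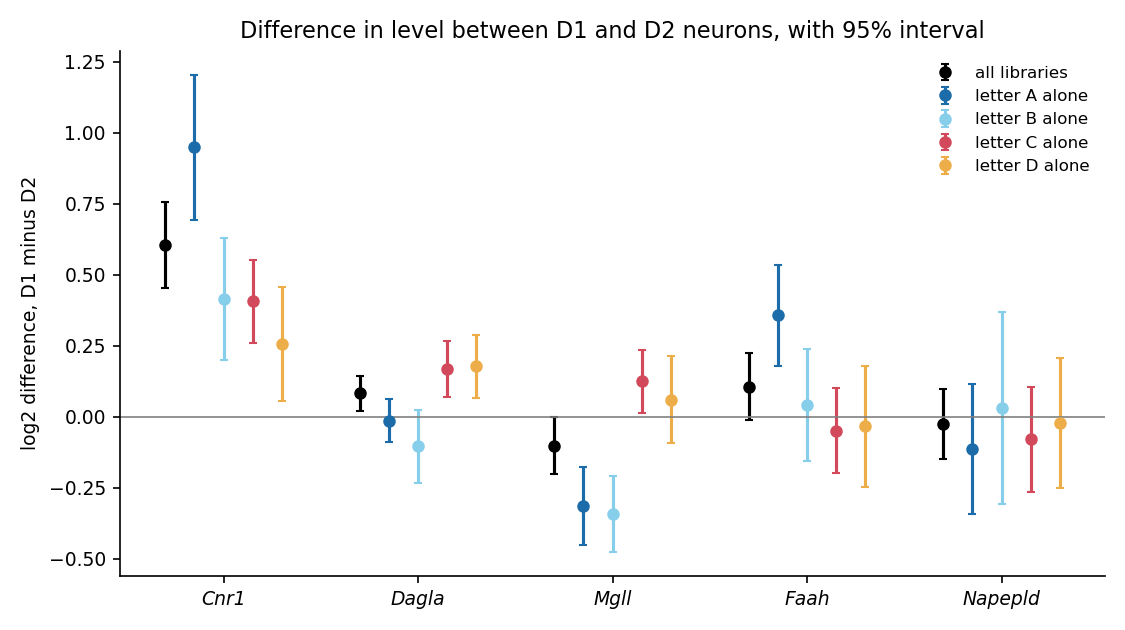
D1 minus D2 difference in level (vertical axis, log2) for each gene (horizontal axis), from all libraries and within each letter; points are fitted values and bars 95% intervals. Cnr1 lies above 0 throughout, from 0.26 in letter D to 0.95 in letter A, and Mgll lies at -0.31 in A and -0.34 in B and above 0 in C and D.

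Mgll, the 2-AG breakdown gene (chr6:88724412-88828360, GRCm38.p6), showed the reverse order, D2 above D1, in the median. Its lowest, median and highest values were 33.1, 66.1 and 99.6 CPM in D1 and 49.7, 70.4 and 101 CPM in D2. The ranges overlapped, with 1 D1 library below every D2 library and 1 D2 library above every D1 library. The difference was -0.10 ± 0.05 on the log2 scale (SE), with D2 over D1 at 1.07-fold (95% interval 1.00 to 1.15) and an adjusted p of 0.160. With a letter block set separately for D1 and D2 Mgll passed, at -0.08 (adjusted p = 0.0488), and with a block common to both it did not (0.0784). Mgll also passed without letter C, at -0.17 (adjusted p = 0.0479), where 14.6% of all genes did. With depth as a covariate it passed at -0.09 (0.0466), where 30.7% did. In all it passed in 3 of 12 alternatives. Within letters the sign changed: -0.31 in A (adjusted p = 0.000752) and -0.34 in B (0.000391), against 0.12 in C (0.0519) and 0.06 in D (0.497). Mgll thus passed as lower in D1 in A and B and did not pass in C or D. It overlaps the lncRNA Gm26588, with the same limit on strand.

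Most of that change came with the D2 libraries. In D2 neurons Mgll had a median of 80.5 CPM over the 22 libraries of letters A and B (72.3 to 101 CPM) and 59.3 CPM over the 24 of C and D (49.7 to 72.6 CPM). Of the A and B libraries 20 lay above every C and D library. Letters were joined in this way after their values were seen. Dagla in D2 neurons was ordered likewise, 61.1 CPM in A and B against 52.2 in C and D, and Faah the other way, 18.4 against 23.6 CPM. Cnr1 and Napepld moved less in D2, with 56.9 against 60.8 CPM and 5.68 against 5.08 CPM. D2 libraries of A and B were also deeper, with median totals of 19297708 in A, 16094161 in B, 11019570 in C and 11432592 in D. The part of depth, or of whatever else the letters stand for, in these levels was not tested. In D1 neurons Mgll had 67.7 CPM in A and B and 63.8 in C and D.

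**Figure D3:**
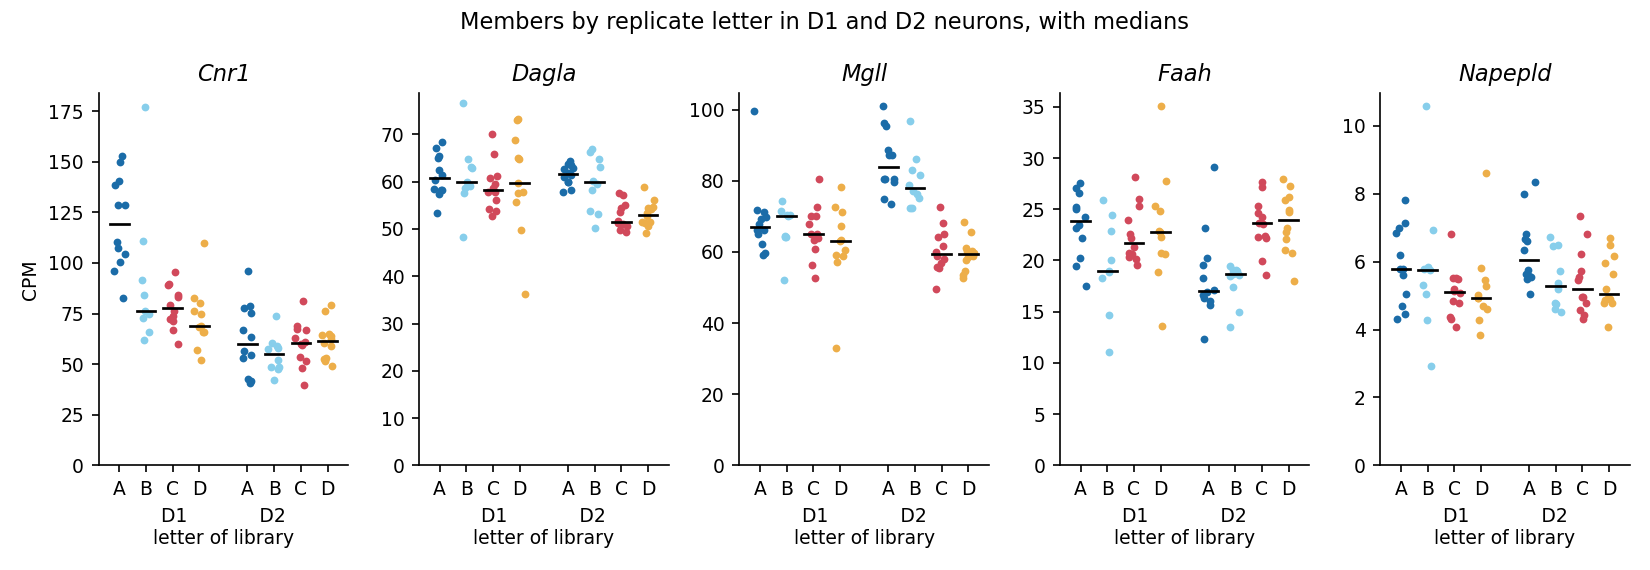
CPM of each gene (vertical axes, starting at 0) in every library of letters A to D (horizontal axis), D1 on the left and D2 on the right of each panel; bars are medians. In D2 neurons Mgll has medians of 83.9 and 77.9 CPM in A and B and 59.4 and 59.3 in C and D, and in D1 neurons Cnr1 is highest in A.

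For anandamide and the other N-acylethanolamines, neither gene passed the test between the cell types. Faah, the breakdown gene (chr4:115996668-116018837, GRCm38.p6, with no overlapping RefSeq gene), had 11.1, 22.6 and 35.1 CPM in D1 and 12.4, 20.5 and 29.2 CPM in D2 as lowest, median and highest. Its difference was 0.11 ± 0.06 on the log2 scale (SE), 1.08-fold (95% interval 0.991 to 1.17), with an adjusted p of 0.209. Without the 3 libraries that stood apart Faah passed, at 0.15 (adjusted p = 0.0394). Within letters Faah was 0.36 higher in D1 in A (adjusted p = 0.00218) and between -0.05 and 0.04 in the others.

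Napepld, the synthesis gene (chr5:21662901-21701622, GRCm38.p6), was the gene of fewest counts. It had 2.92, 5.28 and 10.6 CPM in D1 and 4.08, 5.55 and 8.35 CPM in D2 as lowest, median and highest, and the D2 range lay inside that of D1. Its difference was -0.02 ± 0.06 on the log2 scale (SE), 0.983-fold (95% interval 0.903 to 1.07), with an adjusted p of 0.796. It passed in none of the 4 letters, where it ran from -0.11 in A to 0.03 in B. RefSeq places the microRNA gene Gm51277 and the pseudogene Gm15719 within its bounds, so its counts are uncertain to that extent.

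The second comparison asked whether the level of a gene followed a daily rhythm. A cosine of 24 h was fitted, whose amplitude is the log2 height from mean to peak. Without letters in the model, 0 of 5 genes passed in D1 neurons, where 0.495% of all genes did, and 0 of 5 in D2 neurons, where 2.94% did. At an unadjusted p under 0.05 there was 1 of 5 in each, Dagla in D1 and Napepld in D2. DESeq2 also called 0 of 5 in each, where it called 1.39% of all genes in D1 and 4.74% in D2. In every case the values at the time of highest median overlapped those at the time of lowest.

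In D2 libraries that shared a letter but not a group, deviations from the group mean correlated above 0.1 in 243 of 243 pairs. Libraries of different letters were not compared in this way, so the check cannot show that each letter is its own block. With the letter as a block 2 of 5 genes passed in D2 neurons, Mgll and Napepld, where 22.3% of all genes passed. The blocked amplitude of Mgll was 0.10 ± 0.02 (SE, adjusted p = 0.0026), with a peak at ZT 12.7 and a peak 1.16-fold over the trough. Unblocked, it was 0.11 ± 0.06 (adjusted p = 0.614). The blocked amplitude of Napepld was 0.15 ± 0.05 (SE, adjusted p = 0.0425), with a peak at ZT 18.4 and a peak 1.23-fold over the trough. Unblocked, Napepld had 0.14 ± 0.05 (adjusted p = 0.247). With the block, the fitted peak of the 2-AG breakdown gene was near lights off, and that of the N-acylethanolamine synthesis gene in the dark phase. Neither rhythm passed in the fit of all D2 libraries without the block.

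With 1 letter fewer, fewer genes passed overall: 15.1% of all genes without A, 15.5% without B, 7.91% without C and 18.5% without D. Mgll passed without A (adjusted p = 0.00871), B (0.0111) or D (0.0139), with amplitudes of 0.11 in each. Without letter C its amplitude was 0.09 and it did not pass (0.0870). Napepld passed without A, at 0.23 (adjusted p = 0.00302). It did not pass without B, at 0.12 (0.244), without C, at 0.12 (0.349), or without D, at 0.15 (0.123). The 3 other genes did not pass with the block: Cnr1 had an amplitude of 0.12 (adjusted p = 0.162), Faah 0.08 (0.308) and Dagla 0.00 (0.994).

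The D2 values of Mgll by time were, as lowest, median and highest, 54.7, 60.1 and 80.5 CPM at ZT2, 53.6, 65.0 and 87.3 at ZT6, and 57.9, 71.8 and 96.8 at ZT10. They were 58.8, 76.5 and 96.2 CPM at ZT14, 59.9, 68.9 and 101 at ZT18, and 49.7, 65.1 and 87.2 at ZT22. Each time spans the low C and D and the high A and B libraries, and all times overlap. Within a letter and sex, Mgll was higher at ZT14 than at ZT2 in 6 of 7 pairs of libraries (median log2 difference 0.16) and than at ZT22 in 7 of 8 (0.17). These times were chosen after their values were seen, and the pairs describe the same libraries as the fit.

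The D2 values of Napepld were 4.58, 4.79 and 8.35 CPM at ZT2, 4.51, 4.92 and 6.82 at ZT6, and 4.08, 4.83 and 5.95 at ZT10. They were 4.95, 5.64 and 7.99 CPM at ZT14, 5.64, 6.47 and 7.35 at ZT18, and 4.76, 5.60 and 6.61 at ZT22. The ZT18 libraries were the closest together and their median was the highest, but single libraries at ZT2 and ZT14 exceeded them all. Within a letter and sex, Napepld was higher at ZT18 than at ZT10 in 8 of 8 pairs of libraries (median log2 difference 0.42) and than at ZT6 in 5 of 7 (0.36), again at times chosen after seeing the values.

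**Figure D4:**
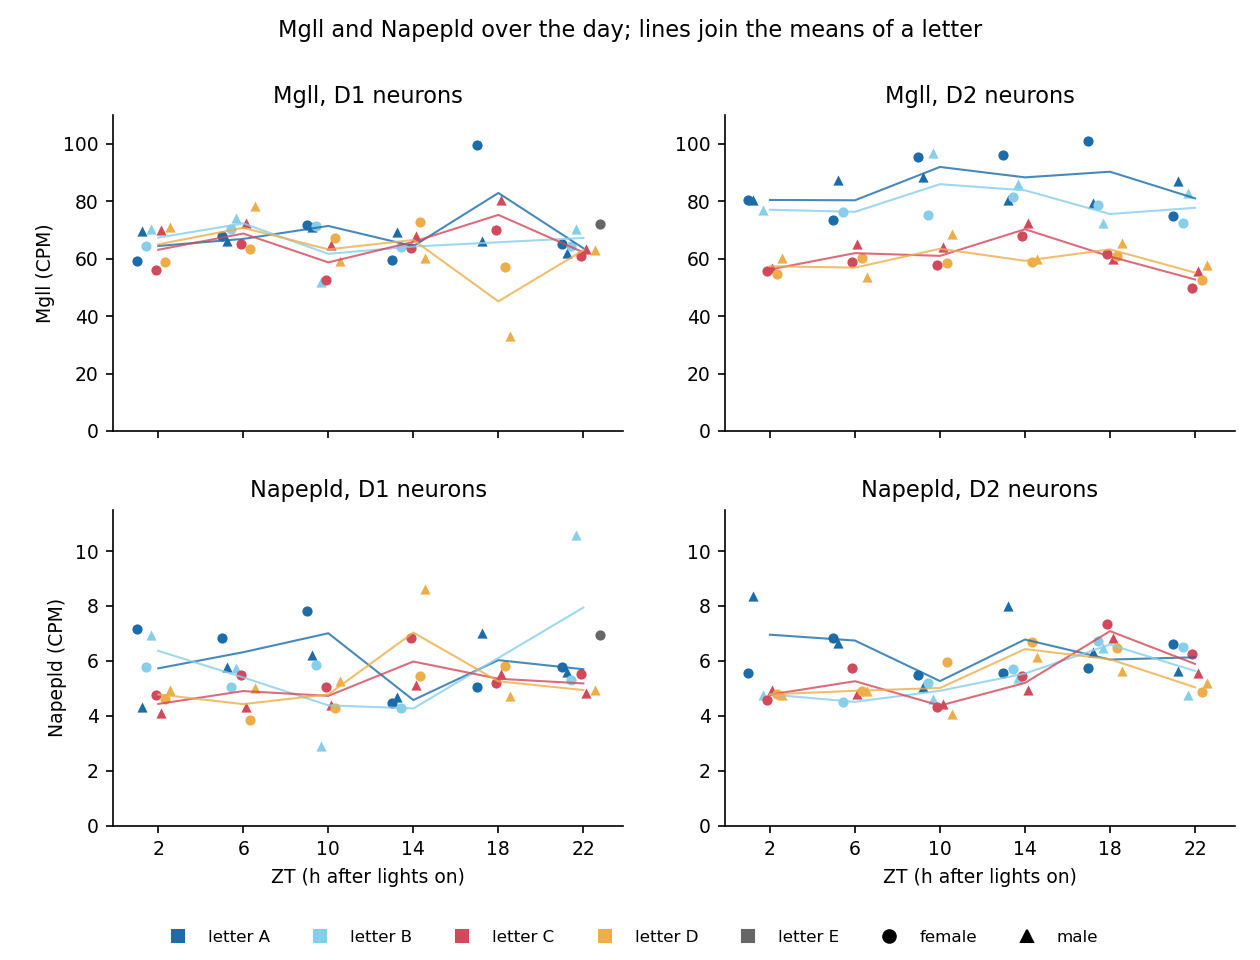
Mgll (top) and Napepld (bottom) in CPM (vertical axes) against ZT in hours (horizontal axes) in every D1 library (left) and D2 library (right); colours give the letter, circles females, triangles males, and lines join the means of a letter. In D2 neurons the Mgll lines of A and B run above those of C and D at every time, and the median of Napepld is highest at ZT18, at 6.47 CPM.

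For Mgll and Napepld, the genes that passed with the block, a window is shown whole. The first of the 2 Mgll windows (chr6:88724162-88724411, plus strand, 68.0% G and C) held 1 E-box, in capitals, which began 44 bases before the start:
Mgll: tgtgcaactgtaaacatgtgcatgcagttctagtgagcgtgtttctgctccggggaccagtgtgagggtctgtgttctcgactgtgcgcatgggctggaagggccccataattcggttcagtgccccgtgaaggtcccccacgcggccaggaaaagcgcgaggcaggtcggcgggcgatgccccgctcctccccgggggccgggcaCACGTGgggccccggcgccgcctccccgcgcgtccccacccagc
The second Mgll window (chr6:88724454-88724703, plus strand, 74.8% G and C) held no E-box and is not shown. The Napepld window (chr5:21701623-21701872, minus strand, 69.6% G and C) held none:
Napepld: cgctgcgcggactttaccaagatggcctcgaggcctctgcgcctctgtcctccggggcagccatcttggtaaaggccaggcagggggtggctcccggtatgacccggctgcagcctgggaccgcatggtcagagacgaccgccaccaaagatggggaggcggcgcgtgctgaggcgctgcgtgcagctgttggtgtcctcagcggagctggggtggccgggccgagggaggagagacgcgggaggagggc
All 3 are from RefSeq on GRCm38.p6 and are richer in G and C than the median window, at 52.4%. Having the motif or not says only which letters these windows hold.

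In D1 neurons Dagla came nearest to a rhythm, with an amplitude of 0.12 ± 0.03 (SE), a peak at ZT 4.3 and a peak 1.18-fold over the trough. Its p was 0.00587 before and 0.203 after adjustment in edgeR. Without letter D the amplitude of Dagla was 0.07 (adjusted p = 0.948), and without the 3 libraries that stood apart it was 0.09 (0.185). Its lowest, median and highest values were 57.9, 66.7 and 76.6 CPM at ZT2, 58.3, 63.9 and 73.2 at ZT6, and 48.3, 58.8 and 65.4 at ZT10. In the dark phase they were 49.8, 58.5 and 68.7 CPM at ZT14, 36.3, 55.0 and 61.4 at ZT18, and 52.7, 57.6 and 62.9 at ZT22. The low value at ZT18 is one of the libraries that stood apart. In D2 neurons the amplitude of Dagla was 0.01, with medians between 54.3 and 57.9 CPM. The difference between D1 and D2 in the Dagla rhythm had an amplitude of 0.13 ± 0.05 (SE), with an adjusted p of 0.484 in edgeR (0.0236 unadjusted). For this test of D1 against D2 rhythms 0 of 5 genes passed in edgeR and in DESeq2, with 1 at an unadjusted p under 0.05. Of all genes, 0.0139% passed in edgeR and 0.23% in DESeq2.

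Cnr1 in D1 neurons had an amplitude of 0.01 ± 0.09 (SE, adjusted p = 0.996). Its D1 values were 61.8, 75.8 and 177 CPM at ZT2, 69.0, 82.9 and 129 at ZT6, 59.9, 79.5 and 150.1 at ZT10, 67.1, 83.1 and 110 at ZT14, 51.9, 92.5 and 153 at ZT18, and 57.0, 80.6 and 129 at ZT22. The spread within each time was wider than the distance between the medians. In D2 neurons the amplitude was 0.13 ± 0.06 (adjusted p = 0.450), and the values were 41.7, 60.9 and 79.0 CPM at ZT2, 49.2, 58.2 and 96.0 at ZT6, 39.5, 52.3 and 74.0 at ZT10, 40.5, 55.3 and 63.6 at ZT14, 42.3, 58.4 and 81.1 at ZT18, and 48.5, 63.7 and 76.1 at ZT22. The lowest and highest medians, at ZT10 and ZT22, overlap. D1 medians exceeded D2 medians at each of the 6 times.

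The remaining genes had small fitted rhythms. In D1 neurons Mgll had medians from 63.9 to 69.0 CPM over the times, with an amplitude of 0.01 and an adjusted p of 0.982. Faah had D1 medians from 20.7 to 24.1 CPM and D2 medians from 18.4 to 23.7 CPM, with amplitudes of 0.08 in both (adjusted p = 0.737 and 0.928). Napepld in D1 had medians from 4.86 to 5.56 CPM, an amplitude of 0.10 and an adjusted p of 0.693. The median amplitude of the 5 genes was 0.08 in D1 against 0.09 over all genes, and 0.11 in D2 against 0.07.

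**Figure D5:**
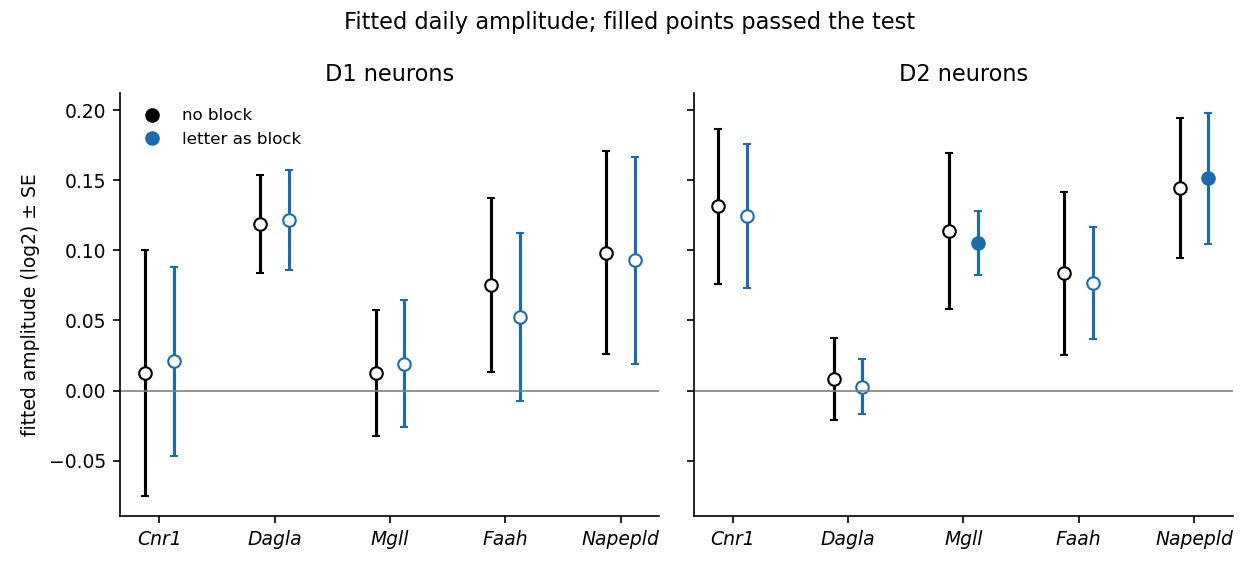
Fitted daily amplitude (vertical axis, log2, mean to peak) of each gene (horizontal axis) in D1 (left) and D2 neurons (right), without the letter and with the letter as a block; bars are standard errors and filled points passed at an adjusted p under 0.05. The filled points are Mgll (0.10) and Napepld (0.15) in D2 neurons with the block.

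The third comparison asked about sex. Levels of the 5 genes did not pass in either cell type: 0 of 5 in D1 neurons, where 0.0418% of all genes passed, and 0 of 5 in D2 neurons, where 0.216% did. No member had an unadjusted p under 0.05 in the main edgeR fit. In D2 neurons 1 of 5 did with the letter as a block, without letter A, or with depth as a covariate, and none passed after adjustment. DESeq2 called none of the 5 (0.0348% of all genes in D1 and 0.307% in D2), but gave no adjusted p for Napepld in D1 or for 4 of the 5 genes in D2. In D1 neurons Cnr1 was 90.3 ± 23.7 CPM in females (SD, n = 23) and 91.3 ± 32.9 CPM in males (SD, n = 22), 1.01-fold in males (95% interval 0.846 to 1.20). In D2 neurons it was 56.6 ± 14.0 CPM in females (SD, n = 23) and 63.0 ± 9.16 CPM in males (SD, n = 23), 1.11-fold in males (95% interval 0.994 to 1.23, adjusted p = 0.926). The male to female folds of the 4 enzyme genes lay between 0.972 (Napepld in D2) and 1.07 (Faah in D2). The widest of their intervals, for Napepld in D1, ran from 0.865 to 1.16. Whether the sex difference itself differed between the cell types was tested too: edgeR called 0 of 14355 genes (0%), with 908 at an unadjusted p under 0.05, and DESeq2 called 21, giving no adjusted p for the 5 members. In edgeR the lowest unadjusted p among the 5 was 0.261, for Faah.

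Rhythms within a sex gave no call without the block. In D1 neurons 0 of 5 genes passed in females (0.0279% of all genes) and 0 of 5 in males (0.0418%), with Dagla in males at an unadjusted p under 0.05 (0.0126, adjusted p = 0.287). In D2 neurons 0 of 5 passed in females (0.495%) and 0 of 5 in males (0.237%), with Cnr1 in females at an unadjusted p of 0.0307 (adjusted p = 0.431, amplitude 0.22, peak at ZT 1.7). DESeq2 called 0 of 5 in each. Its shares of all genes were 0.0557% in D1 females and 0.286% in D1 males, 1.82% in D2 females and 1.01% in D2 males. With the letter as a block Mgll passed in D2 females, with an amplitude of 0.13 ± 0.03 (SE, adjusted p = 0.0176) and a peak at ZT 13.7, where 12.5% of all genes passed. In D2 males 0 of 5 passed with the block, where 9.11% of genes did, and Mgll had 0.09 ± 0.03 (adjusted p = 0.122) with a peak at ZT 11.2. This does not show that the sexes differ. With the block, edgeR called 3 of 14355 genes (0.0209%) for rhythms compared between D2 males and females, with 1970 at an unadjusted p under 0.05, and Mgll had an adjusted p of 0.577. Without it, for rhythms compared between males and females, edgeR called 0 of 14355 genes in D1 (0%) and in D2 (0%), with 226 and 389 at an unadjusted p under 0.05, and DESeq2 called 0 and 2. None of the 5 genes passed in any of these.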

How the data were processed

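Ribosome-bound mRNA of 91 libraries was analysed. The authors deposited raw counts per gene, not normalized, for 14355 Ensembl identifiers and, as the file's name has it, a filter on log CPM (threshold not given). Per the submitters' processing notes, FastQC 0.11.7, HISAT2 and HTSeq 0.10.0 were used with GRCm38 and GRCh38, whose roles are not given.

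Counts were fitted in R 4.3.3 with edgeR 4.0.16 (TMM, quasi-likelihood), with a mean, a cosine and a sine of 24 h per cell type and sex, in D1, D2 and all libraries. p-values were adjusted over all genes. The script was tested on simulated data. Libraries of the same letter were compared by correlating deviations from group means. All 243 D2 pairs exceeded 0.1, but 156 of 223 in D1 and 381 of 510 between cell types. No library was a copy of another in its group.

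Alternatives were DESeq2 1.42.0, RLE size factors, filterByExpr, letter blocks, each letter left out, depth as a covariate, time as a factor of 6 levels, and leaving out 3 libraries; fits within letters, and blocked fits without 1 letter, were added after seeing the data. The labels do not say whether libraries of a group came from separate animals, so p-values measure the spread between samples. In bulk samples fewer cells of a type and less RNA per cell cannot be told apart.

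The members and lists were chosen with earlier results of these data known. The text names the 5 members by the identifiers of their rule. Of 49997 RefSeq entries 0 carry an Ensembl identifier, so the 7 pathway and 9 marker lists could not be scored and the genes most like each member could not be named.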

Additional observations from a re-analysis of the deposited data

Results flagged for a closer look

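In the 95 sets of 4 libraries tested (a gene in a group), 9 had a library far from the other 3 by Dixon's test, against about 1 in 20 by chance. Groups of 3 were not tested.

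Cnr1 in D1 neurons stood out upwards in 3 groups: 129 CPM in female ZT6 A (others 69.0 to 74.7), 150 CPM in male ZT10 A (59.9 to 75.0) and 177 CPM in male ZT2 B (68.4 to 82.7). In D2 neurons Cnr1 was 78.6 CPM in male ZT2 A (others 57.6 to 60.9), and Napepld was 8.35 CPM in the same library (4.77 to 4.96). Dagla was 68.7 CPM in D1 female ZT14 D (57.8 to 58.6) and 63.8 CPM in D2 male ZT18 A (53.6 to 54.7). In D1 male ZT22 B, a library that stood apart over all genes, Mgll was 70.2 CPM (62.2 to 63.4) and Napepld 10.6 CPM (4.84 to 5.60).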

How the results depend on the processing

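Cnr1 was higher in D1 and passed under 12 of 12 alternatives to the main fit of level, from 0.43 to 0.71 on the log2 scale (adjusted p 7.21e-14 to 1.45e-06), and within each letter. Alternative values of single genes were compared for levels by cell type and by sex, rhythms in D1 and in D2, and D1 against D2 rhythms. Of these 390 values, 331 kept their side of the threshold and, for levels, their direction, and 26 newly passed. The other 33 changed sign, none of them a call, so they also kept their side of the threshold. Rhythms within a sex, rhythms compared between sexes and the sex difference between cell types were not among the 390. In D2 females Mgll newly passed in 3 of 14 alternatives and Faah in 1 of 14. Direction was compared for levels alone, since an amplitude has no sign, and peak times were not compared. The count of genes past the threshold for D1 against D2, 1 in the main fit, where 19.3% of all genes passed, was 2 with RLE size factors (20.2% of all genes) or DESeq2 (21.6%), both Cnr1 and Dagla. It was 3 with depth as a covariate (30.7%, also Mgll) and 3 without the 3 libraries that stood apart, unblocked (19.5%) and blocked (42.2%), with Cnr1, Dagla and Faah. With the letter as a block it was 2 (38.1%, Dagla at 0.08, adjusted p = 0.0182), and with the letter within each cell type 3 (43.2%, also Mgll). It was 3 in letter A alone and 2 in B, in C and in D (48.3% to 55.9%), and 1 to 2 with a letter left out (12.3% to 48.2%). In D1 not all pairs of libraries of a letter correlated above 0.1, and the block left D1 rhythms at 0 of 5 (1.13% of all genes). For the D2 rhythm the count, 0 in the main fit (2.94% of all genes), was 2 with the letter as a block (22.3%). With a letter left out it was 0 to 1 (0.383% to 1.82%), with Napepld passing without A (0.22, adjusted p = 0.0119, 1.82% of all genes). With the block and a letter left out it was 0 to 2 (7.91% to 18.5%). For D2 females it was 1 with the block (12.5%). With a letter left out as well it was 0 to 2 (2.7% to 13.2%), with Mgll and Faah passing without D (13.2%).

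The values that changed sign belonged to genes that had not passed in the main fit. For D1 minus D2 within a letter they were Dagla at -0.013 in A and -0.103 in B, Mgll at 0.125 in C and 0.060 in D, Faah at -0.049 in C and -0.033 in D, and Napepld at 0.032 in B. With a letter left out, Napepld ran from -0.060 to 0.020. For male minus female in D1 with a letter left out, Cnr1 ran from -0.084 to 0.052, Dagla from -0.084 to 0.025, Mgll from -0.087 to 0.032 and Napepld from -0.079 to 0.082. Without the 3 libraries Dagla was 0.034, Mgll 0.051, Faah 0.029 and Napepld -0.0090, and with the block as well Dagla was 0.046, Mgll 0.068 and Faah 0.018. Dagla was 0.024 and Mgll 0.062 with depth as a covariate, Mgll 0.0052 with the block and Napepld -0.0035 with RLE size factors. For male minus female in D2, Dagla ran from -0.0030 to 0.033 with a letter left out, and was -0.0028 and -0.00042 with the block and without B or C. With depth Dagla was -0.014 and Mgll -0.0073. The cause of these changes was not tested. Genes for which DESeq2 gave no adjusted p are left out. Counts of 24 to 149 per library limit what can be said of Napepld.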

Other observations

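Over the 12 group means of sex and time in D2 neurons, log2(CPM + 1) of Cnr1 and Faah had a correlation of 0.76, against -0.04 over the 12 of D1 neurons. Faah and Napepld had 0.74 in D1 and 0.00 in D2. These 2 pairs are named because they had the highest value in D2 and in D1. Every other value within a cell type lay between -0.49 (Mgll and Faah in D2) and 0.45 (Cnr1 and Mgll in D1). D1 male ZT10 B, a library that stood apart, held the lowest D1 value of both Faah and Napepld, and the correlation was not recomputed without it. The group means share libraries across genes, with their depth and letters, so these values are descriptions.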
